A study of Mus musculus with 52 samples.

Results

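Primary cultured neurons of CD1 mice that had been active for 360 min in vehicle (DMSO) are described here across all genes, through RNA polymerase II (Pol II) at transcription start sites (TSSs). Pol II occupancy was measured by chromatin immunoprecipitation with sequencing (ChIP-seq). The 2 libraries of these neurons were picked by their labels and set against 2 libraries of unstimulated neurons kept for 6 h in the same vehicle, out of 52 samples in the series and 31 Pol II libraries in 16 groups. Vehicle neurons after 10, 30, 60 and 180 min of activity and unstimulated vehicle neurons kept for 1 h, with 2 libraries each, gave the earlier part of the response. All of these groups received DMSO. The remaining Pol II libraries were of a single minute of activity in vehicle or of the arm given U0126, an inhibitor of the kinase MEK, which activates ERK. The labels name neither the stimulus nor the brain region or age of the mice, and they do not say whether the libraries of a group came from separate cultures. P-values therefore measure the spread between these libraries, which may be technical.

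When neurons fire, calcium enters the cell and activates kinases, ERK among them, that act on transcription factors already bound at promoters, such as CREB and SRF. Within minutes Pol II is released into immediate-early genes, many of which code for transcription factors of the FOS, EGR and NR4A families. Their products then take part in switching on later genes for secreted peptides, synaptic proteins and inhibitors of the same signalling pathways. Immediate-early transcription is known as transient, and what is still engaged by Pol II after hours of activity is the question that the 360 min libraries address.

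Each value is the authors' normalized Pol II density over a window of 600 bp at a TSS, with mm9 coordinates. For each gene symbol the window with the highest mean density was used, and the upper 50% of genes by mean density, 12097 genes, were tested. A log2 fold change is the difference of log2(density + 0.1456), which understates the change of genes with low density, and it comes from limma with Benjamini-Hochberg adjustment over all genes tested. A gene was called at an adjusted p under 0.05. Beside the calls, each gene was described by the 95% interval of its log2 fold change at 360 min against unstimulated 6 h. It was above baseline where the interval was above 0, below baseline where it was below 0, within 2-fold where the interval covered 0 and stayed inside -1 to 1, and unresolved where it covered 0 and was wider. These states are on the log2(density + 0.1456) scale, and a gene of low density that is within 2-fold on it can differ by more in density itself.

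The summed density was between 15810 and 16460 in the 4 libraries, and 0.795% to 3.01% of their windows held a 0. The median density of the study's control TSSs, which the authors used for normalization, was between 1.00 and 1.01. No read counts were available, so the depth behind each density is unknown. Densities of the 2 libraries correlated across genes with r = 0.853 at 360 min and r = 0.75 in unstimulated 6 h neurons, where genes are not independent replicates. Of 12 pan-neuronal genes all passed the filter on low density, with Elavl3, an RNA-binding protein of neurons, highest at a mean of 4.41. Of 12 microglial genes 1 passed, and Cx3cr1 and C1qc were at 0 in at least 1 of the 4 libraries. Of 12 endothelial and fibroblast genes 1 passed. Of 12 genes of the oligodendrocyte lineage 5 passed, with the late myelin gene Mag at 0 in at least 1 library, and of 12 astrocyte genes 7 passed, with Glul highest at a mean of 3.70.

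After 360 min of activity 0 of 12097 genes were called against unstimulated 6 h neurons in either direction. The lowest adjusted p was 0.864, at Socs2, an inhibitor of cytokine signalling. The 95% interval was above 0 for 221 genes (1.83%) and below 0 for 153 (1.26%), which together is 374 genes (3.09%) with an unadjusted p under 0.05, and an interval of this kind misses 0 for 5% of genes where nothing differs. For 8350 genes (69%) the interval covered 0 and lay within 2-fold on this scale. For the remaining 3373 genes (27.9%) the interval was too wide to tell. The median log2 fold change over all genes was 0.01, a value that centring each library on its median holds near 0. Activity for 180 min also gave 0 calls against the same unstimulated 6 h libraries, with 339 genes (2.80%) above and 253 (2.09%) below by the interval.

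**Figure D1:**
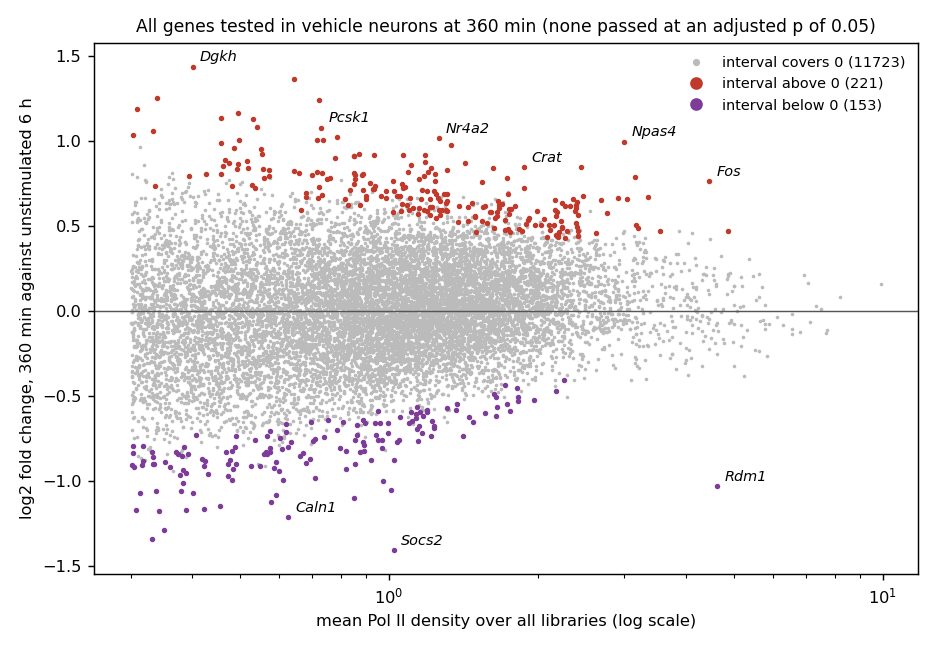
Log2 fold change of each of the 12097 genes at 360 min against unstimulated 6 h in vehicle (vertical axis), against its mean Pol II density over all libraries (horizontal axis, log scale). Red points are the 221 genes with an interval above 0 and purple points the 153 with an interval below 0. Grey points are the genes whose interval covered 0, and no gene passed the adjusted threshold.

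The early response gave the set of genes whose later state could be asked. In vehicle, 22 genes (0.182%) were called higher at 10 min, 150 (1.24%) at 30 min and 19 (0.157%) at 60 min against unstimulated 1 h neurons, 154 genes (1.27%) in all. They include 2 of the 656 tested genes that the study marked as control TSSs, Tubb3 and Usp48, both within 2-fold at 360 min. The part that scaling has in the set was not tested. At 360 min 18 of the 154 (11.7%) were above baseline, beside 1.83% of all genes tested. A further 81.8% were within 2-fold, beside 69% of all genes. Another 10 genes were unresolved, beside 27.9% of all genes, and 0 were below baseline, beside 1.26%. The share within 2-fold depends on the width of the intervals as well as on the changes. Those within 2-fold ran from -0.32 to 0.47 in log2 fold change, with a median of 0.12. Of all 154, 118 were positive, beside 51.3% of all genes. The early genes had a median log2 fold change of 0.70 at 10 min, 1.04 at 30 min and 0.72 at 60 min, then 0.25 at 180 min and 0.17 at 360 min, beside 0.01 for all genes at 360 min. In 69 of the 154 (44.8%) both 360 min libraries lay above both unstimulated 6 h libraries, beside 17.6% of all genes, and in 8 they lay below, beside 11.8% of all genes.

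The direct difference between 360 min and 60 min pointed the same way for most early genes. Density was lower at 360 min than at 60 min for 141 of the 154, beside 53.4% of all genes, and for 53 (34.4%) the interval of that difference was below 0, beside 2.86% of all genes. All 154 were also called at 10 or 30 min, so the calls at 60 min added no gene to the set. These counts describe the set, and no test was run on them. After adjustment 2 genes (0.0165% of all genes) fell between 60 and 360 min, Ovca2 and Mir212, and 0 rose, with 289 genes (2.39%) higher by the interval. The unstimulated controls themselves differed in level for these genes. Unstimulated 6 h neurons were higher than unstimulated 1 h neurons by a median of 0.19 on the log2 scale over the 154 genes, against a median of -0.01 over all genes, and the 154 were chosen for being high relative to the 1 h libraries. No gene was called between the 2 unstimulated groups, with 162 genes (1.34%) higher and 179 (1.48%) lower by the interval.

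The size of the early set depended on single libraries and on the scaling. It held 11 genes without unstimulated 1 h replicate 1, 41 without 30 min replicate 1 and 388 without 30 min replicate 2, and 21 with quantile normalization. Under all 12 settings with all libraries 15 genes were called early, and these carry the account below. Of the 15, Fos, Npas4, Nr4a1, Nr4a2 and Nr4a3 were above baseline at 360 min. Egr1, Cyr61, Dusp5, Gls2, Syt4, Tcp11l2, Mir132, Mir212 and Ovca2 were within 2-fold, and Maff was unresolved.

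**Figure D2:**
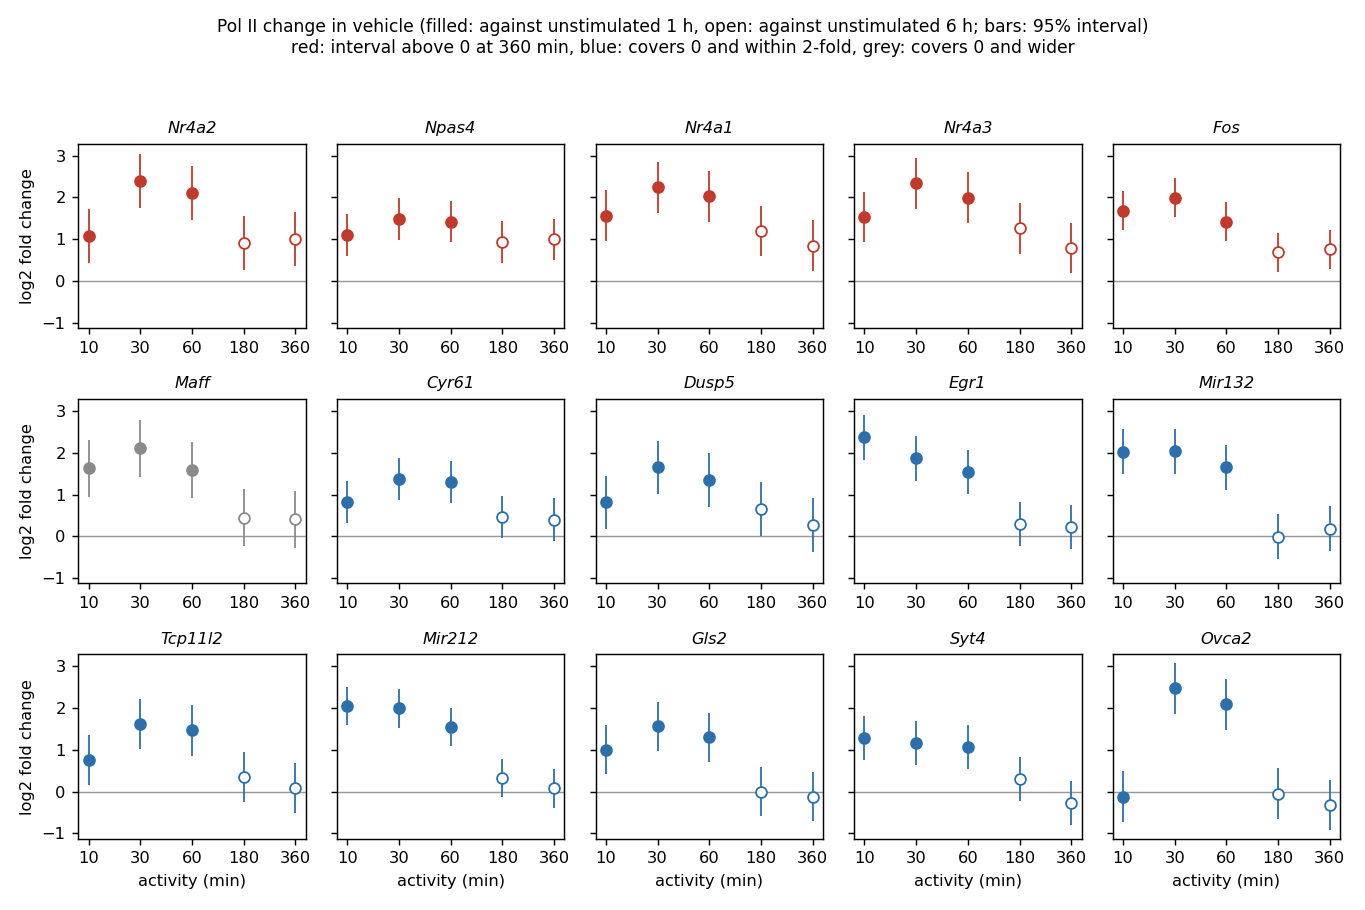
Log2 fold change of the 15 genes called early under all settings, by minutes of activity. Filled points are set against unstimulated 1 h and open points against unstimulated 6 h neurons, and bars are 95% intervals. The 5 genes in red keep an interval above 0 at 360 min, while the 9 in blue return to an interval that covers 0 and lies within 2-fold.

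Npas4, a transcription factor induced by calcium entry that controls the formation of inhibitory synapses, had the lowest unadjusted p of the early genes at 360 min. Its density (chromosome 19, 4989671 to 4990271) was 4.50 and 2.27 in the 360 min libraries, against 1.53 and 1.45 in the unstimulated 6 h libraries. Both active libraries lay above both controls, but they differed from each other by more than the controls did. The log2 fold change was 0.99 (SE 0.25, limma unadjusted p 2.94e-04, adjusted p 0.9997), beside 1.11, 1.49 and 1.42 at 10, 30 and 60 min and 0.92 at 180 min. Without 360 min replicate 1 it was 0.53, with an interval that covered 0.

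Fos, which codes for a component of the AP-1 transcription factor, held the highest 360 min density of these 5 genes, 4.55 and 4.36 in active neurons, against 2.21 and 2.81 in unstimulated 6 h neurons (chromosome 12, 86814550 to 86815150). The groups did not overlap. Its log2 fold change was 0.76 (SE 0.23, limma unadjusted p 0.00223, adjusted p 0.9997), against 1.99 at 30 min. The interval remained above 0 without each of the 4 libraries in turn, with values between 0.62 and 0.90.

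The 3 genes of the NR4A family code for orphan nuclear receptors that act as transcription factors without a classical ligand. Nr4a2 (chromosome 2, 56967149 to 56967749) had densities of 1.14 and 1.04 at 360 min, against 0.366 and 0.543 in unstimulated 6 h neurons. Its log2 fold change of 1.01 (SE 0.32, limma unadjusted p 0.00309, adjusted p 0.9997) stood beside 2.39 at 30 min, and its interval stayed above 0 without each of the 4 libraries, at 0.82 to 1.21. Nr4a1 (chromosome 15, 101096976 to 101097576) had 1.93 and 2.21 at 360 min, against 0.799 and 1.38. Nr4a3 (chromosome 4, 48057876 to 48058476) had 2.10 and 2.25 at 360 min, against 0.882 and 1.52. In all 3 genes both active libraries were above both controls. The log2 fold changes of Nr4a1 and Nr4a3 at 360 min were 0.84 (SE 0.30) and 0.79 (SE 0.30), beside 2.24 and 2.34 at 30 min, and without unstimulated 6 h replicate 1 they were 0.52 and 0.46 with intervals that covered 0.

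**Figure D3:**
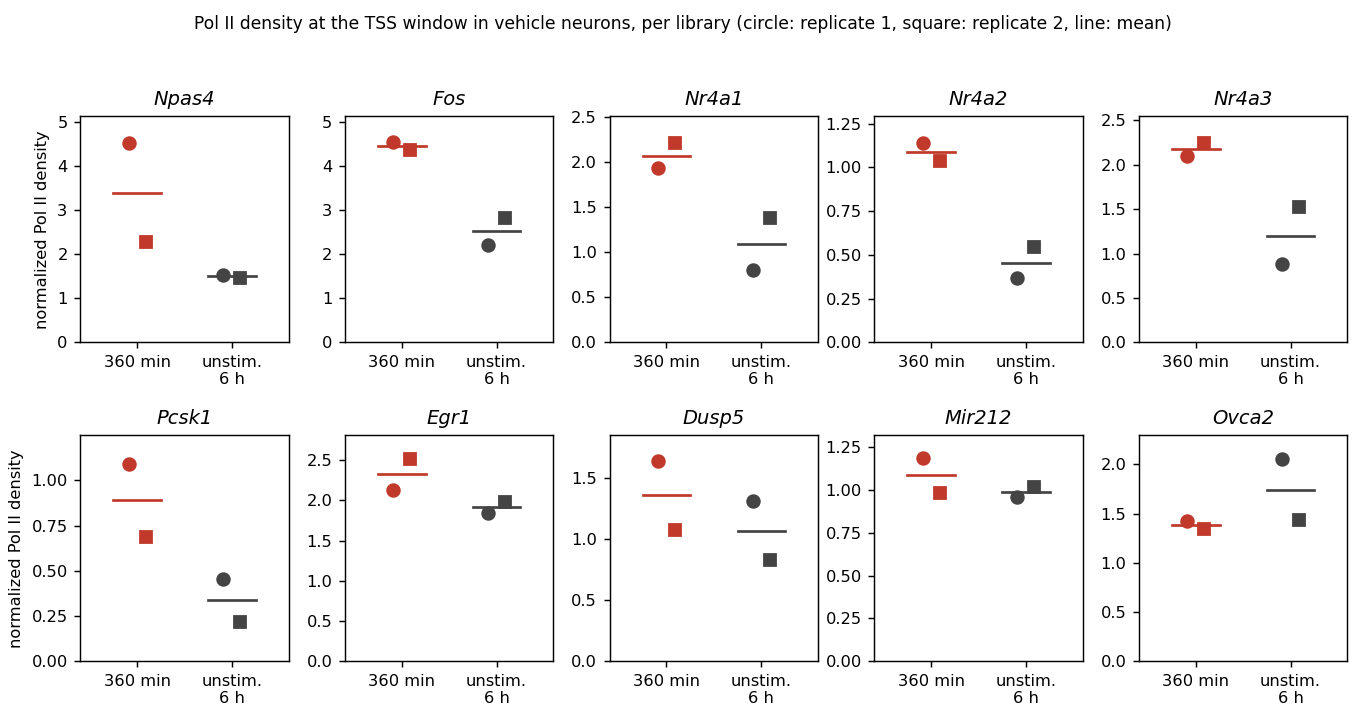
Normalized Pol II density (vertical axes, starting at 0) in each library of 360 min vehicle neurons (red, left) and unstimulated 6 h vehicle neurons (dark grey, right) for 10 genes. Circles are replicate 1, squares replicate 2 and lines the mean of the 2. In the first 6 panels both active libraries lie above both controls, and in Egr1 they do so by a small margin, while in Dusp5 and Mir212 the groups overlap and in Ovca2 the active libraries lie below.

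A promoter element that binds CREB, the cyclic AMP response element (CRE), is known in many activity-regulated genes, and the promoters below show where its core letters lie in genes of each outcome. They run from 250 bases before to 50 bases after the start, are taken from RefSeq on build GRCm38.p6, and their coordinates are of that build and not of the mm9 windows. Capitals mark matches on either strand to TGACG, the core of the full CRE TGACGTCA, and to the CArG box, the element bound by SRF. Npas4, Fos, Nr4a2 and Pcsk1 were above baseline at 360 min, and Dusp5 and Ovca2 were within 2-fold.
Npas4 (chr19:4989922-4990221, minus strand): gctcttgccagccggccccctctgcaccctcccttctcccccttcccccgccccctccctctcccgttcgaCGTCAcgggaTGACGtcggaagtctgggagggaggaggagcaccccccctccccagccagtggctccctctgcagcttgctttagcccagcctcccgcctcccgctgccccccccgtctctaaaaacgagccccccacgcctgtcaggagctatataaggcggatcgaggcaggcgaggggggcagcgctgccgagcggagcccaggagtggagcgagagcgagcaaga
Fos (chr12:85473640-85473939, plus strand): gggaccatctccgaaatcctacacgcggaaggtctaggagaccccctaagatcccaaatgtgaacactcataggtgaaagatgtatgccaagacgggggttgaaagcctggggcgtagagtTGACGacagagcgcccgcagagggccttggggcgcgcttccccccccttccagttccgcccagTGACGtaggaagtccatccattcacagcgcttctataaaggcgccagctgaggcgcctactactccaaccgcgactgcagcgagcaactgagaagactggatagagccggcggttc
Nr4a2 (chr2:57123954-57124253, minus strand): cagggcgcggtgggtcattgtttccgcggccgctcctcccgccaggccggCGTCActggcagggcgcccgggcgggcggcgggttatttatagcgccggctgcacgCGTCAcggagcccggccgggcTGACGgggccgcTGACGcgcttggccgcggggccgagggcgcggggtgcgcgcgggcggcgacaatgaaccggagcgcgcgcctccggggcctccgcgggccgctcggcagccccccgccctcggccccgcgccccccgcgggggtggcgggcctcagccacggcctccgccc
Pcsk1 (chr13:75089607-75089906, plus strand): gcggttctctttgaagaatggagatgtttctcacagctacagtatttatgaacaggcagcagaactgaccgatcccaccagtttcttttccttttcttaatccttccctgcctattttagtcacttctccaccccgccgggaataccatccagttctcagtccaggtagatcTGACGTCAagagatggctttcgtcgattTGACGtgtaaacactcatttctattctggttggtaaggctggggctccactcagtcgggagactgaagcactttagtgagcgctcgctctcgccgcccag
Dusp5 (chr19:53528895-53529194, plus strand): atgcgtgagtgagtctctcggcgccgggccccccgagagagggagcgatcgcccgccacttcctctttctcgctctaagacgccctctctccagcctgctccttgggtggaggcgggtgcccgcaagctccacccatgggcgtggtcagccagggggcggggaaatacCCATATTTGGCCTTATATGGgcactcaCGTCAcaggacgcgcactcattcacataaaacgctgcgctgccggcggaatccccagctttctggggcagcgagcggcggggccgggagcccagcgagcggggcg
Ovca2 (chr11:75178759-75179058, minus strand): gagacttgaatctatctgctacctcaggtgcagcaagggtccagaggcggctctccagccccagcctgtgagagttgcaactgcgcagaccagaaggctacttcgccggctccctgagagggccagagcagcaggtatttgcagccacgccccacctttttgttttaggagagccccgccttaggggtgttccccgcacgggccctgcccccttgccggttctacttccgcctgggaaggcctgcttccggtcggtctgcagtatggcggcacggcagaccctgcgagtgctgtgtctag

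Of these promoters Npas4 and Fos each held 2 matches to TGACG and Nr4a2 held 4. Pcsk1 held the full CRE, Dusp5 held 2 CArG boxes and 1 TGACG, and Ovca2 held none of the letters searched. The promoters printed are examples and do not compare the outcomes. Of others above baseline that are not printed, Nr4a1 and Nr4a3 held 4 TGACG each, Rgs2 held 2 and Fosl2 held 0. Of others within 2-fold, Mmp23 held 0, and Homer1 held 3 in 1 promoter and 0 in another. RefSeq promoters were matched by symbol for 120 of the 154 early genes and 9160 of the 12097 genes tested. TGACG lay in 83 of the 120 (69.2%), in 37.4% of the genes tested and in 23% of all 27025 genes of the promoter table. By outcome, 12 of 15 early genes above baseline (80%) and 67 of 101 within 2-fold (66.3%) held it. The full CRE, in which TGACG is contained, lay in 15 of 120 early genes (12.5%), in 4.17% of the genes tested and in 2.03% of all genes, with 2 of 15 above baseline and 12 of 101 within 2-fold. The AP-1 letters TGANTCA were in 5.83% of early and 5.08% of tested genes, the CArG box in 3.33% and 1.54%, the EGR letters GCGTGGGCG in 1.67% and 1.55%, and GCGGGGGCG in 14.2% and 6.67%. All motifs were searched on both strands. These are matches of letters with no test, and the base composition of the sets was not compared.

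Among genes for secreted products, Pcsk1, the convertase that cuts neuropeptide and hormone precursors, was the member above baseline. Its densities (chromosome 13, 75227134 to 75227734) were 1.09 and 0.688 at 360 min, against 0.455 and 0.220 in unstimulated 6 h neurons, without overlap. The log2 fold change was 1.08 (SE 0.38, limma unadjusted p 0.00828, adjusted p 0.9997), after 0.36 at 10 min, 1.79 at 30 min and 1.12 at 180 min. It was 0.70 without unstimulated 6 h replicate 2 and 0.80 without 360 min replicate 1, both with intervals that covered 0. Vgf, whose product is cut into neuropeptides, was unresolved at 0.59, with an interval from -0.01 to 1.19 and densities of 2.59 and 3.08 at 360 min, against 1.54 and 2.05.

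Some single genes for inhibitors of signalling were above baseline, while the list of ERK feedback and ERK targets as a whole had a median near 0, as given below. Spry4, an inhibitor of receptor tyrosine kinase signalling to ERK, had densities of 2.78 and 1.94 at 360 min, against 0.983 and 1.40, and a log2 fold change of 0.87 (SE 0.32), beside 1.31 at 30 min. Without 360 min replicate 1 it was 0.64 with an interval that covered 0. Rgs2, which speeds the switching off of G proteins, had 3.78 and 3.46 at 360 min, against 2.14 and 2.18, with a log2 fold change of 0.67 (SE 0.25) beside 1.17 at 30 min. Dusp6, a phosphatase that inactivates ERK, was not among the early genes called, yet had 2.04 and 2.52 at 360 min, against 1.22 and 1.41, a log2 fold change of 0.69 (SE 0.29). In each of these 3 genes the groups did not overlap. The AP-1 member Fosl2 was lower in density, at 0.606 and 0.813 in active neurons, against 0.157 and 0.484, with a log2 fold change of 0.92 (SE 0.36) that was 0.41 without unstimulated 6 h replicate 1.

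The other 9 early genes above baseline had various roles and smaller values, from 0.47 at Lbh to 0.62 at Hspa4 apart from Med16 at 0.92. Hspa4 codes for a heat shock protein that helps the HSP70 chaperone, with densities of 2.37 and 2.31 at 360 min, against 1.33 and 1.54. Med16, a subunit of the Mediator complex that bridges transcription factors and Pol II, had 1.16 and 0.942, against 0.236 and 0.842, so that its value rested on 1 low control and was 0.25 without unstimulated 6 h replicate 1. Dgat1, which completes the synthesis of triglycerides, and Elovl5, which lengthens fatty acids, had log2 fold changes of 0.61 and 0.58. Ranbp2 of the nuclear pore, Pnrc1, a coregulator of nuclear receptors, Cabyr and Wdr90 were between 0.51 and 0.58. In all 18 genes both active libraries lay above both controls, beside 17.6% of all genes, and the choice of the 18 by their interval over these same libraries nearly fixes that.

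How firmly these 18 stood depended on the single libraries of both groups. In 12 of the 18 genes 360 min replicate 1 was higher than replicate 2, beside 6161 of all 12097 genes. In 14 of the 18 unstimulated 6 h replicate 1 was lower than replicate 2, beside 6614 of all genes. The count above baseline was 10 without 360 min replicate 1, 12 without 360 min replicate 2, 10 without unstimulated 6 h replicate 1 and 24 without unstimulated 6 h replicate 2. Fos and Nr4a2 kept an interval above 0 without each of the 4 libraries, Npas4, Rgs2, Med16 and Hspa4 in 3 of the 4 cases, Lbh in none, and the other 11 in 1 or 2. Of the 18, the study had marked 3 as rapid and 5 as delayed activity-regulated TSSs, and 10 carried neither mark.

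**Figure D4:**
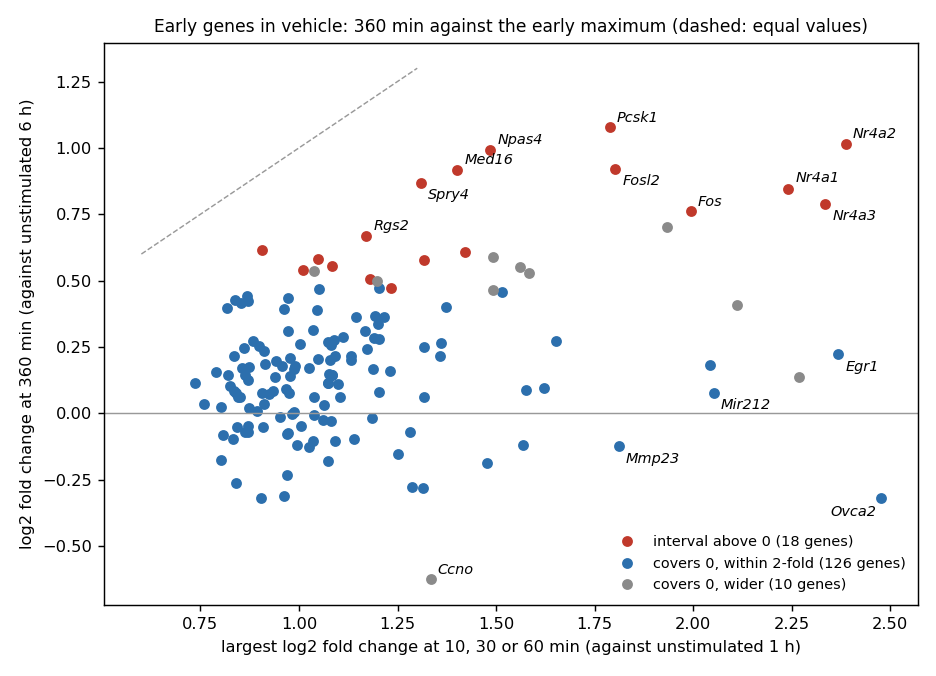
Log2 fold change at 360 min against unstimulated 6 h (vertical axis) for the 154 early genes, against the largest log2 fold change at 10, 30 or 60 min against unstimulated 1 h (horizontal axis). Red marks the 18 genes above baseline, blue those within 2-fold and grey the 10 unresolved. All points lie below the dashed line of equal values, and Ovca2 and Egr1 combine large early values with 360 min values of -0.32 and 0.22.

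Genes that had returned to near baseline included the immediate-early gene with the largest 10 min change. Egr1, a zinc finger transcription factor, had 2.13 and 2.52 at 360 min, against 1.84 and 1.99 in unstimulated 6 h neurons. The log2 fold change was 0.22 with an interval from -0.31 to 0.75, beside 2.37 at 10 min, 1.87 at 30 min and 1.54 at 60 min. The test of the difference between the responses at 360 and 10 min gave -2.15 (SE 0.37, limma adjusted p 0.00976), one of 2 genes (0.0165%) that passed it. Between the responses at 360 and 30 min it was -1.65 and did not pass (limma adjusted p 0.238).

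Both genes called between 60 and 360 min lie at 1 locus on chromosome 11, which holds the windows of Mir212 (74986589 to 74987189), Mir132 (74986883 to 74987483) and Ovca2 (74992010 to 74992610). The windows of both microRNAs overlap by 306 of 600 bp, so that reads in this stretch count for both, and the Ovca2 window starts 5127 bp beyond that of Mir132. Ovca2 codes for a serine hydrolase. Mir132 and Mir212 are microRNAs known to be induced by CREB in neurons. In RefSeq the microRNAs lie on the plus strand and Ovca2 on the minus strand, and ChIP does not tell strands apart. The mature microRNAs are printed with their seed, bases 2 to 8, in capitals, because the 3p arms of both share it.
miR-132-3p: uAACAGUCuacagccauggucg
miR-212-3p: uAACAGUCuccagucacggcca
miR-132-5p: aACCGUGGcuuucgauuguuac
miR-212-5p: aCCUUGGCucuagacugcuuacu

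The seed AACAGUC stands in both 3p arms, while the 5p arms differ in theirs. Pol II density does not say which arm is made. Mir212 had densities of 1.19 and 0.984 at 360 min, against 0.960 and 1.01 in unstimulated 6 h neurons, with overlapping groups and a log2 fold change of 0.08 (interval from -0.38 to 0.54). At 10 min it had been 4.34 and 4.11, and at 60 min 3.17 and 2.75. It fell by 1.32 on the log2 scale at 360 min against 60 min (SE 0.23, limma adjusted p 0.0086), and its response at 360 min minus that at 30 min was -1.92 (SE 0.32, limma adjusted p 0.00531), where 2 genes (0.0165%) were called, itself and Ovca2. The first call was lost without any 1 of the 4 libraries compared, and the second without 360 min replicate 2, unstimulated 1 h replicate 2 or 30 min replicate 1.

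Ovca2 had densities of 1.43 and 1.35 at 360 min, against 2.05 and 1.43 in unstimulated 6 h neurons, a log2 fold change of -0.32 with an interval from -0.93 to 0.29. Its time course differed from that of the microRNAs at 10 min, where its densities were 1.26 and 1.43 and its log2 fold change -0.12, beside 2.05 at Mir212 and 2.02 at Mir132. At 30 min it had the highest early value of all 154 genes, with densities of 13.5 and 5.88, and at 60 min it had 6.86 and 6.80. It fell by 2.17 at 360 min against 60 min (SE 0.30, limma adjusted p 2.85e-04), and its response at 360 min minus that at 30 min was -2.80 (SE 0.42, limma adjusted p 0.0018). It was the 1 gene (0.00827%) called for the response at 360 min minus that at 60 min. The first call was kept without each of the 4 libraries, and the second was lost without 30 min replicate 1, the library with the density of 13.5, and kept without each of the other 7. Hic1, with windows on the other side of the microRNAs, and Dph1, with a window 11675 bp beyond that of Ovca2, showed no such course, with densities at 30 min of 0.642 and 0.693 at the stronger Hic1 window and 0.573 and 0.887 at Dph1.

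Other genes with large early values were also back within 2-fold. Dusp5, a nuclear phosphatase of ERK, had 1.64 and 1.08 at 360 min, against 1.31 and 0.832, and a log2 fold change of 0.27 beside 1.65 at 30 min. Cyr61, a secreted matrix protein and target of SRF, was at 0.40 beside 1.37 at 30 min, with both active libraries (1.53 and 1.46) above both controls (1.17 and 0.963). Gls2, a mitochondrial glutaminase, was at -0.12 beside 1.57 at 30 min, with 0.744 and 0.711 at 360 min, against 0.772 and 0.783. Syt4, a synaptotagmin of dense-core vesicles, was at -0.28 beside 1.29 at 10 min, and in it both active libraries (0.910 and 1.04) lay below both controls (1.07 and 1.29). The early and 360 min values have different controls. Unstimulated 6 h minus unstimulated 1 h was 0.70 at Syt4, 0.46 at Gls2, 0.32 at Dusp5, 0.20 at Mmp23 and -0.17 at Homer1 on the log2 scale. Homer1, a scaffold of the postsynaptic density, was at 0.09 beside 1.58 at 10 min, and Mmp23, a metalloprotease, at -0.12 beside 1.81 at 60 min. Maff, a small MAF transcription factor, stayed unresolved at 0.41 (interval from -0.27 to 1.09), beside 2.11 at 30 min.

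Genes with less Pol II early were fewer. At 30 min 22 genes (0.182%) were called lower than unstimulated 1 h neurons, with a median of -1.41, and at 360 min their median was -0.30. Of the 22, 4 were below baseline at 360 min, beside 1.26% of all genes, and 0 were above, beside 1.83%. A further 11 were within 2-fold, beside 69% of all genes, and 7 were unresolved, beside 27.9%. Kcnv1, a modulatory potassium channel subunit, was one of the 4, with 0.173 and 0.276 at 360 min, against 0.615 and 0.448, a log2 fold change of -0.91 (SE 0.39, limma unadjusted p 0.0238, adjusted p 0.9997) beside -1.60 at 30 min. Runx1t1, a transcriptional corepressor, was at -0.74, and the others below baseline were the transcripts A230050P20Rik and Gm3500. Epha5, an ephrin receptor, was within 2-fold at 0.25, with 1.15 and 1.40 at 360 min, against 1.05 and 0.979, beside -1.02 at 30 min. At 30 min 11.5% of windows were at 0 in the library with the most, 30 min replicate 1, and whether this bears on the genes called lower was not tested.

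Across the gene lists, 0 members were called at 360 min, so each list is described by its median and its intervals, beside a median of 0.01 over all genes. The lists were chosen with earlier results of these data known. Of 22 rapid immediate-early genes 4 were above baseline (Fos, Npas4, Nr4a1 and Ier3), 12 within 2-fold, 6 unresolved and 0 below, beside 1.83%, 69%, 27.9% and 1.26% of all genes. Their median was 0.30 at 360 min and 1.13 at 30 min, and 19 were positive, beside 51.3% of all genes. Ier3, which acts in survival signalling, was at 0.69, with 0.929 and 0.616 at 360 min, against 0.313 and 0.504. Fosb, an AP-1 member, was unresolved at 0.70 (interval from -0.09 to 1.49). Arc, which regulates AMPA receptor uptake at synapses, was at 0.00 with 1.12 and 1.19, against 1.25 and 1.00, and the growth-response genes Ier2 and Gadd45g were at 0.03 and 0.01. Dusp1, a phosphatase of MAP kinases, was at 0.46, Btg2, an antiproliferative gene, at 0.42, and the AP-1 member Junb at 0.25, all within 2-fold.

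The remaining rapid genes spread to both sides of 0. Egr2, Egr3 and Egr4, zinc finger factors like Egr1, were unresolved at -0.25, 0.14 and 0.35, with Egr2 at 0.117 and 0.721 in active neurons, against 0.212 and 0.704. Klf2, a Krüppel-like factor, was unresolved at -0.56, with both active libraries (0.454 and 0.650) below both controls (0.748 and 0.953). Zfp36, which promotes the decay of mRNAs, was at -0.10, and Ier5, a regulator of the heat shock response, at 0.08. Atf3, a stress-induced bZIP factor, was at 0.37 and Amigo3, an adhesion molecule of neurons, at 0.02.

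Of 29 delayed activity-regulated genes tested 6 were above baseline and 0 below, beside 1.83% and 1.26% of all genes, with a median of 0.22. Besides Nr4a2, Nr4a3 and Rgs2 these were Ell2, a factor of transcription elongation (1.35 and 0.781 at 360 min, against 0.651 and 0.328), Per1, a core clock repressor (0.945 and 1.42, against 0.354 and 0.865), and Trib1, a pseudokinase (0.71 on the log2 scale). Of 15 late and secreted genes tested 1 was above, Pcsk1. Their median was 0.33 at 30 min against unstimulated 1 h, and 0.55 at 180 min and 0.38 at 360 min against unstimulated 6 h, with no test of the difference between times. Sst, the neuropeptide somatostatin, was unresolved at 0.68 and Rgs4, an inhibitor of G protein signalling, at 0.61. Of 21 genes of ERK feedback and ERK targets 3 were above (Spry4, Fosl2 and Dusp6) and 0 below, with a median of 0.00. Dusp2, a further ERK phosphatase, had both active libraries (0.226 and 0.186) below both controls (0.433 and 0.352), at -0.65 and unresolved.

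**Figure D5:**
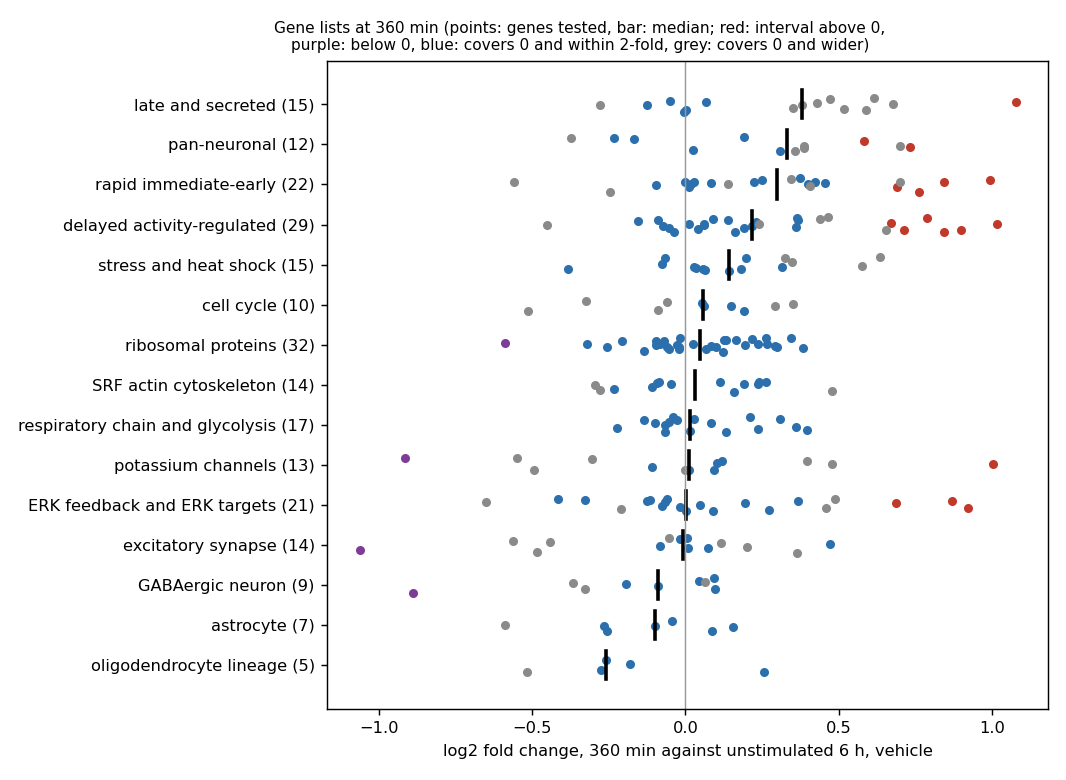
Log2 fold change at 360 min against unstimulated 6 h in vehicle for the genes tested in each list with 3 or more of them, with the number tested in parentheses. Points are genes and black bars the list medians. The medians of the late, pan-neuronal, rapid and delayed lists lie at 0.38, 0.33, 0.30 and 0.22, and those of the housekeeping lists close to 0. Those of the oligodendrocyte and astrocyte lists lie at -0.26 and -0.10.

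Some lists had a median above 0 early and near 0 at 360 min. The median gene of all those tested was at 0.02 to 0.03 in the first hour of activity. Centring each library on its median holds this value near 0, so it does not show whether Pol II shifted as a whole. Scaling matters for such early values, since the early set of 154 genes shrank to 21 under quantile normalization and 23 under cyclic loess. The part that scaling or density has in the early list medians was not tested. The 32 ribosomal protein genes had a median of 0.05 at 360 min, beside 0.53 at 10 min, 0.60 at 30 min and 0.38 at 60 min. Of them 31 were within 2-fold, beside 69% of all genes. Rpl14, a protein of the large subunit, was below baseline at -0.59, with 1.25 and 1.27 at 360 min, against 1.88 and 1.95. The 14 genes of the SRF actin cytoskeleton list had a median of 0.03 beside 0.40 at 10 min, with 11 within 2-fold and 3 unresolved, and Srf itself was at 0.26. The 17 genes of the respiratory chain and glycolysis were all within 2-fold, with a median of 0.02 beside 0.36 at 10 min. Of 15 genes of stress and heat shock 0 were above or below, and their median was 0.14. Among them were the mitochondrial chaperonin Hspe1, which was unresolved at 0.64, whose window overlaps that of Hspd1 by 385 bp, and Ddit4, an inhibitor of mTOR signalling, at -0.38.

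Among neuronal genes outside the activity programs a few lay above or below baseline by the interval. Of 12 pan-neuronal genes 2 were above baseline and 0 below, beside 1.83% and 1.26% of all genes, with a median of 0.33 at 360 min and 0.16 at 180 min. Snap25, a SNARE protein of synaptic vesicle release, had 1.06 and 1.23 at 360 min, against 0.518 and 0.710, a log2 fold change of 0.73 (SE 0.32). Syn1, a protein of synaptic vesicles, had 1.17 and 1.25, against 0.668 and 0.809, at 0.58 (SE 0.26). The summed density of the 12 genes was 18.8 and 19.1 at 360 min, against 14.7 and 16.5 in unstimulated 6 h neurons. The sums of the other neuronal lists did not rise. They were 10.54 and 10.27, against 10.55 and 11.41, for 21 excitatory synapse genes. For 12 genes of GABAergic neurons they were 6.38 and 4.73, against 6.89 and 5.30. In bulk chromatin a change in the share of neurons and a change per neuron cannot be told apart. The summed density of the 12 genes of the oligodendrocyte lineage was 4.33 and 4.04 at 360 min, against 5.34 and 5.38, and that of the 12 astrocyte genes 9.92 and 9.37, against 9.99 and 11.0. The part that these cells have in the result was not tested.

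Among excitatory synapse genes Grin1, the obligate NMDA receptor subunit and an early gene, was within 2-fold at 0.47, beside 1.20 at 60 min. Among 13 potassium channel genes Kcnj3, a G protein-gated inward rectifier, was above at 1.00 (SE 0.44, with 0.693 and 1.25 at 360 min, against 0.331 and 0.434). Kcnv1 was below. The list median was 0.01 at 360 min and -0.71 at 30 min. At 30 min 11.5% of windows were at 0 in replicate 1 and 1.64% in replicate 2. Whether this bears on the -0.71 was not tested. Of 10 cell cycle genes 0 were above or below, with a median of 0.06.

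The 20 genes with the lowest unadjusted p whose groups did not overlap, 10 in each direction, show what stood out apart from the early genes. In the higher direction 3 were early genes, Npas4, Fos and Nr4a2. Dgkh, a diacylglycerol kinase, had 0.411 and 0.749 at 360 min, against 0.0741 and 0.148, and a log2 fold change of 1.44 (SE 0.40). Crat, which moves acetyl groups to carnitine, had 2.60 and 2.67, against 1.49 and 1.24, at 0.84 (SE 0.24). It is a TSS that the study marked as control, and its window overlaps that of Ptpa by 299 bp. Gng4, a G protein subunit, was at 1.37, Smim18 at 1.13, Trim68, a ubiquitin ligase, at 1.08 and Spag4 at 0.87.

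In the lower direction 0 were early genes. Socs2 had 0.262 and 0.586 at 360 min, against 1.22 and 1.31, a log2 fold change of -1.41 (SE 0.31, limma unadjusted p 7.14e-05, adjusted p 0.864), and its window overlaps that of the transcript 5730420D15Rik by 83 bp. It was at -0.84, -0.86 and -1.05 at 10, 30 and 60 min against the other control, and at -0.15 at 180 min. Rdm1, a gene of DNA repair, had 2.86 and 2.99 at 360 min, against 4.79 and 7.44, at -1.03 (SE 0.24, limma unadjusted p 1.75e-04, adjusted p 0.9997), beside -1.28 at 180 min. Caln1, a calcium sensor of the calneuron family, had 0.412 and 0.369, against 1.14 and 0.999, at -1.22 (SE 0.36). Slc30a1, a zinc exporter of the plasma membrane, was at -1.06, and Tbl2, Efcc1, Mtus2, Ryk, a Wnt receptor, Ifrd2 and Yipf5, a protein of vesicle traffic, were between -1.29 and -0.77.

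For most of these 20 genes the unstimulated groups also differed in level. In 9 of the 10 higher genes unstimulated 6 h neurons were below unstimulated 1 h neurons, by 1.24 on the log2 scale at Dgkh, and in 8 of the 10 lower genes they were above. All 10 of the higher genes were positive at 180 min and 9 of the 10 lower genes negative, but both times are set against the same 2 control libraries.

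In the U0126 arm at 360 min 0 genes were called against vehicle at 360 min, with 59 (0.488%) higher and 55 (0.455%) lower by the interval. The lowest adjusted p was 0.0861, at Spry4, whose mean density was 0.678 ± 0.395 with U0126, against 2.36 ± 0.594 in vehicle (SD, n = 2 each), a log2 fold change of -1.70 (SE 0.32, limma).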

How the data were processed

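Pol II ChIP-seq was measured in 31 libraries, all of which entered 1 fit. The deposited values are a normalized Pol II density per TSS window, a signal scaled by the authors with control TSSs, per the file headers. Build mm9 and the tools bedtools, SAMtools and Bowtie2 appear in the submitters' processing notes. The sources used here do not say how they were run. The table holds 27815 windows for 24194 symbols. For each symbol the window with the highest mean was kept, and the upper 50% by mean density (at least 0.301) were tested. Values were taken as log2(density + 0.1456), the pseudocount being percentile 25 of the positive values, less the median of each library. limma 3.58.1 in R 4.3.3 was fitted with a mean per group and a variance trend (15 residual degrees of freedom, 18.7 added by moderation). The fit was tested on simulated data. The depth is unknown, since no read counts were available, so no counting interval was given.

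Activity for 180 and 360 min was set against unstimulated 6 h and the shorter times against unstimulated 1 h. The members, the lists and the tests were chosen with earlier results of these data known. Genes were named by a rule: the 10 lowest unadjusted p in each direction at 360 min without overlap of the libraries, since under 3 were called, the 12 largest early rises, all rapid genes, at most 4 of any other list, largest changes first, and genes called between times. Predicted genes, Riken clones and microRNAs were skipped by name. Mir212, Mir132, Trib1, Epha5, Runx1t1, Homer1 and the early genes above baseline or called under all settings were added after their values were seen, as were the transcripts named as below baseline. Alternatives were other pseudocounts, filters, scalings, controls, windows and libraries in the fit, a replicate block and leaving out each library. A few genes that the rule names are not reported here. The H3K27ac tables and the input libraries were not used here.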

Additional observations from a re-analysis of the deposited data

Results flagged for a closer look

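The response of 3 genes differed between 360 min and an earlier time by a direct test in limma, with p adjusted over all genes. Ovca2 differed by -2.80 on the log2 scale (SE 0.42, adjusted p 0.0018) between the responses at 360 and 30 min, and by -2.42 (SE 0.42, adjusted p 0.0261) between 360 and 60 min. Mir212 differed by -1.92 (SE 0.32, adjusted p 0.00531) between 360 and 30 min and by -1.98 (SE 0.32, adjusted p 0.00615) between 360 and 10 min. Egr1 differed by -2.15 (SE 0.37, adjusted p 0.00976) between 360 and 10 min. In these contrasts the 360 min response is set against unstimulated 6 h and the earlier one against unstimulated 1 h.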

How the results depend on the processing

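The count of 0 genes called at 360 min was the same under the settings run except 2. It was 1 (Socs2, lower) against the mean of both unstimulated groups and 2 (Rdm1 and Socs2, lower) with the replicate number as a block. The replicate block also gave 13 genes for 360 against 60 min, of which 2 were higher, 10 for the responses at 360 minus 30 min, 552 early genes and, of the 154, 29 above, 3 unresolved and 1 below. Same-numbered libraries of the 360 min and unstimulated 6 h groups deviated together across genes (r = 0.406), over all pairs of groups between -0.0424 and 0.503, and with 2 libraries a group the numbers were taken as shared names only, not as pairing.

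Without the filter 1 gene was called for 360 against 60 min, 1 for 360 minus 30 min, and 45 early genes were unresolved. Without the variance trend these counts were 1 for 360 against 60 min and 21 unresolved, with 30 early genes called. The early set held 79 genes in the upper 25% by density, 21 with quantile normalization, 23 with cyclic loess and 80 in vehicle libraries alone, and 1 gene was below baseline under the first 3. With the pseudocount at percentile 50, 6 were unresolved, and with the 60 min response in place of 30 min 1 gene was called. Without 1 library at a time the counts were 1 to 2 for 360 against 60 min, 0 to 3 for 360 minus 30 min, 11 to 388 early genes, 10 to 24 above, 0 to 1 below, 29 to 45 unresolved and 97 to 110 within 2-fold. The causes were not tested. States under other settings and centring on control windows were added after the data were seen. None of the 46 named genes with an interval that excluded 0 at 360 min changed sign, though some of these intervals covered 0 with 1 library left out. For the other 69 named genes a change of sign was not counted.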
